A study of Danio rerio with 24 samples.

Results

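In zebrafish larvae, 51 of 31242 genes divided mutants of the transcription factor gene klf9 from wildtype larvae without overlap: every mutant sample lay on one side of every wildtype sample. The members were chosen by their levels in all 24 samples, as CPM, the expected count of a gene scaled to the total count of its sample. A gene was taken if all 12 values of one genotype exceeded all 12 of the other, the higher mean was at least 0.5 CPM and the ratio of the means was at least 2, with klf9 itself left out. Of 21155 genes with a higher mean of at least 0.5 CPM, 35 (0.165%) were higher in klf9-/- and 16 (0.0756%) were lower. Without the minimum ratio, 64 genes (0.303%) were higher and 120 (0.567%) were lower. Because the genotype difference selected the genes, their levels and ratios are given as a description and were not tested.

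The larvae were of the AB strain and were collected at 5 days post-fertilization as pools of 6, with 4 pools per genotype at each of 3 zeitgeber times (ZT, hours from the onset of light): ZT-3, ZT0 and ZT+2.5, in a cycle of 14 h light and 10 h dark. klf9-/- larvae carried a CRISPR-made deletion of 2 bases in the first exon of klf9, which shifts the reading frame and brings an early stop codon. Wildtype controls came from the same grandparents as the mutants. The labels say that the replicates of a set were homogenised in turn and extracted together, so extraction and group cannot be told apart. The deletion is the only mutant allele in the study, so what the allele does and what the 2 sets of larvae differed in by descent cannot be told apart. RNA came from whole larvae, in which fewer cells of a type and less RNA per cell cannot be told apart either.

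Klf9 is a zinc-finger transcription factor of the Krüppel-like family whose gene responds to glucocorticoids, and it takes part in stress-responsive and endocrine signalling. Zebrafish strains are not fully inbred, and their genomes differ in gene content and copy number, often in families of immune genes. Many zebrafish genes still bear the name of the genomic clone they were found on (si:, zgc: or a clone accession), and little is known of most of them. When a mutant line is propagated, variants that lie close to the mutated gene are inherited with it, while variants on other chromosomes segregate independently.

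klf9 itself overlapped between the genotypes, through wildtype replicate 2 of ZT+2.5, at 15.7 CPM. Its level was 4.50 to 23.4 CPM (median 18.2) in klf9-/- and 15.7 to 78.3 CPM (median 50.2) in wildtype, with means of 15.9 ± 5.33 and 49.3 ± 18.3 CPM (SD, n = 12). At each time point its mean was lower in klf9-/-. At ZT-3 the highest klf9-/- value was 19.5 CPM and the lowest wildtype value 37.85 CPM. At ZT0 these values were 23.4 and 54.15 CPM. Totals were 41444609 to 61392947 expected counts in klf9-/- (median 46426734) and 49713549 to 64452247 in wildtype (median 54621233). The first principal component, a spread among replicates of every group, held 21.7% of the variance and had means of 0.147 SD in klf9-/- and -0.147 SD in wildtype. With libraries scaled by TMM instead of totals, 38 genes were higher and 12 lower, of which 47 were among the 51. The 4 genes lost, anxa1c, hbbe1.1, si:ch73-29c22.1 and BX005417.1, were all lower in klf9-/-. At any ratio, TMM gave 76 genes higher and 62 lower, so that the excess of lower genes rested on the scaling by totals, under which the median gene was -0.04 in log2 (klf9-/- over wildtype) against 0.01 with TMM.

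The higher set had a median ratio of 3.86 and the lower set 3.19, and 22 of the 51 genes had a ratio above 5. The higher mean had a median of 2.16 CPM. It was under 2 CPM in 25 genes, and in 8 it was over 10 CPM. The gap between the genotypes, the lowest value of the higher genotype over the highest of the lower, had a median of 1.40 and was above 2 in 13 genes. Within the higher genotype the coefficient of variation was 5.68% to 60%, with a median of 23.4%. The plot of all pools shows that the genes with the largest ratios were those near 0 in one genotype.

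**Figure D1:**
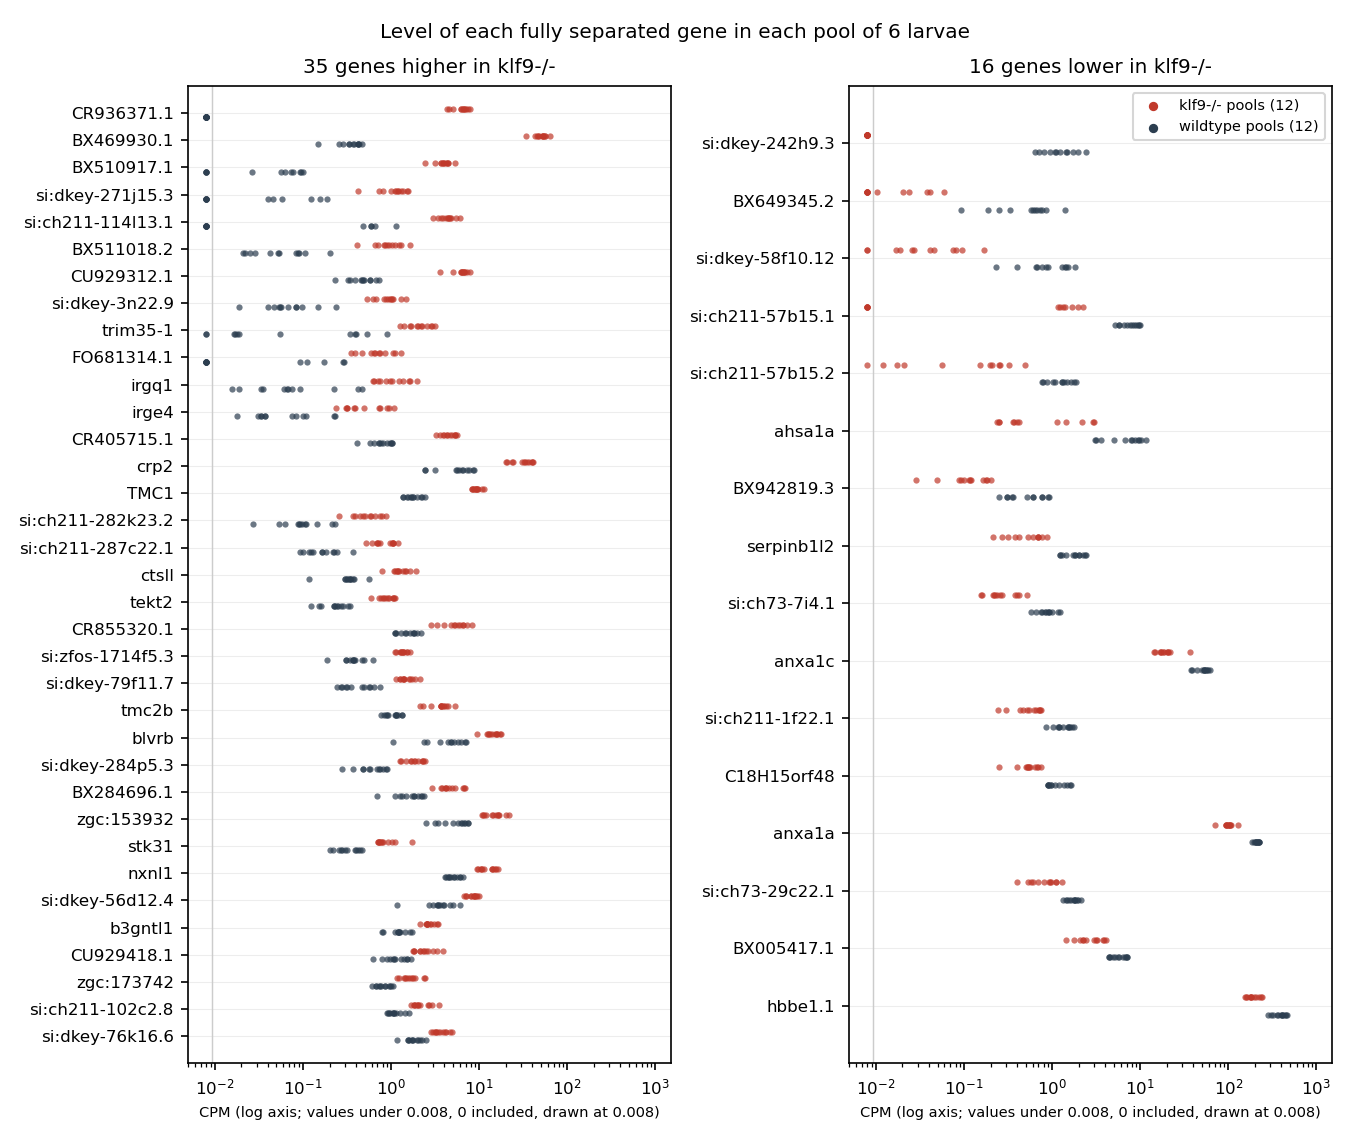
Level of the 51 genes in each pool (CPM, log axis), with 35 genes higher in klf9-/- on the left and 16 lower on the right. Each point is a pool, red for klf9-/- and dark blue for wildtype, ordered by ratio from the top, and points left of the grey line are values under 0.008 CPM, 0 included. No gene has a red and a dark blue value in reverse order, and CR936371.1, BX469930.1 and BX510917.1 have gaps of more than 1 decade, while si:dkey-242h9.3 is at 0 in klf9-/-.

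The higher set was made up of clone-named loci, genes of families with roles in immunity, and a few genes of sensory cells, cilia and metabolism. Some of the clone-named loci were nearly silent in wildtype, while the median wildtype mean of the set was 0.437 CPM. Of the 35, 23 were clone-named and 12 were not. Over both sets 33 of 51 (64.7%) were clone-named, compared with 20.1% of all genes of at least 0.5 CPM. Without the minimum ratio the excess was smaller: 56 of 4248 clone-named genes (1.32%) and 128 of 16907 others (0.757%) were separated. Among members, 11 of the 12 largest ratios belonged to clone-named loci. Clone-named members had a median ratio of 4.84 and the others 3.40.

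CR936371.1 (ENSDARG00000094195, now si:dkey-149m13.3) was detected in every klf9-/- pool and was all but absent from wildtype. It reached 4.36 to 7.83 CPM (median 6.54) in klf9-/- and was 0 in 11 wildtype pools, with 0.35 of an expected count in the other. Against a floor of 3 counts per library it was at least 117-fold higher in klf9-/-. BX469930.1 (ENSDARG00000092358, now si:ch211-114l13.11) was the most abundant gene of the higher set. Its level was 34.4 to 64.2 CPM (median 51.9) in klf9-/- and 0.146 to 0.472 CPM (median 0.374) in wildtype, a ratio of 142 between means of 50.2 ± 7.57 and 0.354 ± 0.0921 CPM (SD, n = 12).

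Other clone-named loci with large ratios were of the same kind. BX510917.1 (ENSDARG00000092739) was 2.45 to 5.35 CPM (median 3.97) in klf9-/- and 0 to 0.0993 CPM (median 0.0591) in wildtype, a ratio of 81.9. The long non-coding RNA si:dkey-271j15.3 (ENSDARG00000091627) was 0.419 to 1.57 CPM in klf9-/- and at 0 in 6 wildtype pools, a ratio of 21.6. Ratios of 11.4 to 14.3 were found for BX511018.2, CU929312.1 and si:dkey-3n22.9, of which CU929312.1 was the best measured, with 3.62 to 7.90 CPM in klf9-/- against 0.232 to 0.722 CPM in wildtype. CR405715.1 had a ratio of 5.69, with 3.20 to 5.64 against 0.411 to 1.01 CPM.

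Many of these values rest on reads that more than 1 gene could claim. RSEM, the counting program, divides a read that matches several genes among them, which leaves counts that are not whole numbers (here, more than 0.005 from one). At least 12 of the 24 values were not whole in 27 of the 51 genes (52.9%), compared with 18.6% of all genes of at least 0.5 CPM. Among clone-named members these were 23 of 33, and among the others 4 of 18 (crp2, serpinb1l2, anxa1c and hbbe1.1). Of all 3933 genes with at least 12 values not whole, 47 (1.2%) were separated at any ratio, compared with 0.87% of all genes. For BX469930.1 all 24 values were not whole. For CR936371.1 13 were, and its other 11 values were 0, which counts as whole. si:dkey-242h9.3, with 10 values not whole and 12 at 0, falls outside the 27. The level of each such gene is uncertain to the extent that near-identical copies share its reads. In 20 genes (39.2%, against 71.1% of all genes) every value was whole, among them trim35-1, irgq1, irge4, TMC1, tmc2b, blvrb, tekt2, stk31, b3gntl1, ahsa1a and anxa1a.

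Among the named genes of the higher set, several belong to families with roles in immunity. trim35-1 (ENSDARG00000052037), of the tripartite motif family of ubiquitin ligases, was 1.25 to 3.18 CPM (median 2.10) in klf9-/- and 0 to 0.905 CPM (median 0.0371) in wildtype, a ratio of 9.60. irgq1 and irge4 are immunity-related GTPases, a family known in mice for defence against intracellular pathogens. irgq1 (ENSDARG00000086847) was 0.619 to 1.98 CPM (median 1.0) in klf9-/- and 0.0155 to 0.462 CPM (median 0.0666) in wildtype, and irge4 (ENSDARG00000070317) was 0.237 to 1.07 CPM against 0.0178 to 0.231 CPM. The ratios of the pair were 8.56 and 6.76, and the genotypes nearly met in irge4, with a gap of 1.03.

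Other members of these families mostly overlapped between the genotypes. Among all genes of at least 0.5 CPM, 184 of 21155 (0.87%) were separated at any ratio. Of 91 TRIM genes 1 (1.1%) was, trim35-1, a share near that of all genes. Of the 4 immunity-related GTPases, irge1 (2.26 ± 0.543 CPM in klf9-/- and 1.09 ± 0.488 CPM in wildtype, SD, n = 12) and irgq2 (3.81 ± 0.687 and 3.15 ± 0.547 CPM) overlapped. This family and the annexins and TMC genes below were added as classes after their values were seen. No gene was separated among 11 NLR, 13 MHC, 16 caspase, 16 chemosensory receptor, 24 UDP glucuronosyltransferase and 2 NITR or DICP genes, families so small that nothing is read from a count of 0 beside a share of 0.87%. si:dkey-79f11.7, now ifi44a5 and of the interferon-induced 44 family, had 1.14 to 2.12 CPM in klf9-/- and 0.241 to 0.751 CPM in wildtype (ratio 3.46). It was the separated one of 18 guanylate-binding or interferon-induced genes (5.56%, compared with 0.87% of all genes), and nothing is read from a single gene.

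crp2 (ENSDARG00000056462), of the C-reactive protein family of pattern-recognition proteins, was the second most abundant gene of the higher set. Its level was 20.4 to 40.5 CPM (median 32.7) in klf9-/- and 2.4 to 8.65 CPM (median 6.11) in wildtype, a ratio of 5.41. blvrb, which encodes biliverdin reductase B of haem breakdown, was 9.56 to 17.6 CPM (median 14.4) against 1.06 to 7.03 CPM (median 4.79), a ratio of 3.15. The gap was 2.36 for crp2 and 1.36 for blvrb. Their relatives by symbol, crp1, crp3 and blvra, overlapped between the genotypes and had lower means in klf9-/-. Means in klf9-/- and wildtype were 1.571 and 1.849 CPM for crp1 and 23.83 and 31.41 CPM for crp3. For blvra they were 4.799 and 5.382 CPM. The liver marker list fixed for the tissue check had higher means in klf9-/- for 6 of 6 genes, none separated, with a summed level of 2992 to 5554 CPM in klf9-/- and 1562 to 4760 CPM in wildtype, and its part in the levels of crp2 and blvrb was not tested.

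Other named genes of the higher set have roles in sensory cells, cilia, germ cells or lysosomes, and b3gntl1 is a glycosyltransferase-like gene. nxnl1, which encodes a thioredoxin-like protein that sustains cone photoreceptors in mice, was 9.45 to 16.4 CPM (median 12.7) in klf9-/- and 4.08 to 6.54 CPM (median 5.00) in wildtype, a ratio of 2.47. The photoreceptor list had 5 of 5 higher means and none separated (5301 to 7354 CPM summed in klf9-/-, 4671 to 6307 CPM in wildtype), and its part in nxnl1 was not tested. tekt2, a tektin of ciliary microtubules, had a ratio of 3.80 (0.584 to 1.1 against 0.124 to 0.342 CPM). stk31, a kinase of germ cells in mice, had 2.74 (0.706 to 1.72 against 0.204 to 0.462 CPM). ctsll, of the cathepsin L family of proteases, had 3.86, and b3gntl1 2.21. Relatives by symbol, namely tekt1, tekt3, tekt4, nxn, nxnl2, ctsl.1, ctsla and ctslb, overlapped between the genotypes.

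Several other clone-named genes were higher in klf9-/- by smaller ratios. si:ch211-282k23.2 (ratio 5.08) was among the weakest, with means of 0.557 ± 0.186 and 0.110 ± 0.0612 CPM (SD, n = 12). zgc:153932 was among the more abundant, at 10.8 to 21.9 CPM in klf9-/- and 2.46 to 7.51 CPM in wildtype (ratio 2.79). The ratio was 3.53 for CR855320.1, 3.52 for si:zfos-1714f5.3, 2.99 for si:dkey-284p5.3, 2.87 for BX284696.1, 2.29 for si:dkey-56d12.4 and 2.12 for CU929418.1. The 3 genes nearest the ratio limit were zgc:173742 (2.03), si:ch211-102c2.8 (2.02) and si:dkey-76k16.6 (2.02). Just outside it stood si:ch211-130m23.5 (1.89), si:ch1073-190k2.1 (1.85) and zgc:171242 (1.84). Just outside the level limit stood CABZ01059408.1 (0.413 CPM in klf9-/- and 0.0454 CPM in wildtype), si:ch211-230g14.3 (0.409 and 0.129 CPM) and BX571809.1 (0.335 and 0.0163 CPM). Just outside the limit of no overlap stood caspbl, with a ratio of 15.3 and a gap of 0.98, BX936456.1 (gap 0.978) and si:ch211-171h4.3 (gap 0.970).

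In the lower set, 10 of 16 genes were clone-named and the named ones were an Hsp90 co-chaperone, a serpin, a pair of annexins, an embryonic globin and C18H15orf48. si:dkey-242h9.3 (ENSDARG00000069189) was at 0 in all 12 klf9-/- pools and at 0.633 to 2.41 CPM (median 1.17) in wildtype. Against the floor of 3 counts per library it was at least 20.6-fold lower in klf9-/-. BX649345.2 (ENSDARG00000101124) had fewer than 3 counts in each klf9-/- pool, with a mean of 0.0166 CPM against 0.594 CPM in wildtype. Against the same floor it was at least 9.45-fold lower. Its wildtype level was uneven, at 0.0919 to 1.41 CPM. Just outside the level limit stood BX323557.1 (0.0835 and 0.464 CPM), FP245462.1 (0.0420 and 0.441 CPM) and BX649345.1, from the same clone accession, with means of 0.00349 CPM in klf9-/- and 0.40 CPM in wildtype.

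Other clone-named genes of the lower set were lower by 2.07- to 20.1-fold. si:dkey-58f10.12 was 0 to 0.169 CPM in klf9-/- and 0.231 to 1.83 CPM in wildtype (ratio 20.1). si:ch211-57b15.1 (ENSDARG00000103260) was at 0 in 5 klf9-/- pools and 1.16 to 2.26 CPM in the other 7, against 5.22 to 9.97 CPM in wildtype, a ratio of 8.41. Its neighbour si:ch211-57b15.2 had a ratio of 7.72 (0 to 0.488 against 0.773 to 1.85 CPM). BX942819.3, si:ch73-7i4.1, si:ch211-1f22.1, si:ch73-29c22.1 and BX005417.1 had ratios of 4.62, 3.05, 2.46, 2.07 and 2.07. Just outside the ratio limit stood eef2a.2 (1.97), si:ch211-218c6.8 (1.93) and si:ch211-207c6.2 (1.88), and just outside the limit of no overlap sp100.3 (gap 0.995), si:ch1073-340i21.2 (0.982) and hbae5 (0.977).

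ahsa1a (ENSDARG00000028664), which encodes an activator of the ATPase of the chaperone Hsp90, was the named gene with the largest ratio in the lower set. It was 0.237 to 2.98 CPM (median 0.407) in klf9-/- and 3.03 to 11.6 CPM (median 7.91) in wildtype, a ratio of 6.75. The mutant pools fell into 7 at 0.237 to 0.417 CPM and 5 at 1.13 to 2.98 CPM, so that the highest mutant pool almost reached the lowest wildtype pool (gap 1.02). serpinb1l2, a serine protease inhibitor of clade B, was 0.214 to 0.868 CPM in klf9-/- and 1.22 to 2.41 CPM in wildtype, a ratio of 3.34. It was the separated one of 24 serpins (4.17%, compared with 0.87% of all genes), and nothing is read from a single gene. C18H15orf48 had a ratio of 2.11, at 0.247 to 0.752 against 0.899 to 1.65 CPM.

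anxa1a and anxa1c are annexins, proteins that bind phospholipid membranes in the presence of calcium. anxa1a (ENSDARG00000026726) was 70.2 to 128.3 CPM (median 101.1) in klf9-/- and 185.4 to 224.8 CPM (median 210.9) in wildtype, with means of 99.7 ± 13.2 and 210.0 ± 11.9 CPM (SD, n = 12). Its coefficient of variation over the wildtype pools, 5.68%, was the lowest of all 51 genes within the higher genotype. anxa1c was 14.4 to 37.2 CPM (median 18.4) against 37.8 to 62.6 CPM (median 53.2), and its highest mutant pool, replicate 1 of ZT+2.5, stood well above the next, at 21.9 CPM. The neighbouring anxa1d was separated too but by a smaller ratio (7.46 ± 0.899 and 11.4 ± 1.22 CPM), while anxa1b overlapped in the other direction (105.1 ± 17.9 and 83.5 ± 20.3 CPM, SD, n = 12). The other annexins, 13 of the 17, overlapped as well.

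hbbe1.1 (ENSDARG00000113599), an embryonic beta globin of red blood cells, was the most abundant member. Its level was 152.9 to 238.8 CPM (median 180.1) in klf9-/- and 279.0 to 463.9 CPM (median 398.2) in wildtype, a ratio of 2.01. All 9 globin genes had lower means in klf9-/-, also with TMM factors. Besides hbbe1.1, hbae3 (253.8 ± 36.6 against 432.8 ± 60.2 CPM) and hbae1.1 (55.7 ± 4.97 against 81.4 ± 8.52 CPM) were separated, below the ratio limit. That made 3 of 9 globins (33.3%), compared with 0.87% of all genes. hbae5 had a ratio of 4.79 but overlapped. The erythroid marker list holds 4 of these globins, hbbe1.1 among them, and alas2. It summed to 483.0 to 734.9 CPM in klf9-/- and 854.9 to 1290 CPM in wildtype, with 3 of 5 genes separated. hbbe1.1, chosen for its separation, is 1 of the 3, so neither the sum nor this count is independent of the choice. No gene was separated in the other 11 marker lists, of liver, pancreas, intestine, neurons, lens, photoreceptors, muscle, myeloid cells, thymus, skin and cartilage. These lists are so small that nothing is read from none being separated, beside a share of 0.87% of all genes. No marker was at 0 in every sample.

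Position in the genome was not used to choose the genes. Gene order was read from the RefSeq annotation of the assembly GRCz12tu, which differs from the Ensembl annotation used for counting and holds 33 of the 51 members, 23 higher and 10 lower. Of these 33, 8 (24.2%) lay on the chromosome that carries klf9, compared with 1070 of 18384 placed genes of at least 0.5 CPM (5.82%). On that chromosome the share of genes fully separated at any ratio fell with distance from klf9. It was 4 of 18 (22.2%) within 10 genes of klf9, 5 of 30 (16.7%) at 11 to 25 genes, 4 of 46 (8.70%) at 26 to 50 and 4 of 91 (4.40%) at 51 to 100. Beyond that and up to 200 genes it was 2 of 189 (1.06%), farther out 8 of 696 (1.15%), and on all other chromosomes 127 of 17314 (0.734%). The 4 genes within 10 of klf9 were also separated with TMM factors.

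**Figure D2:**
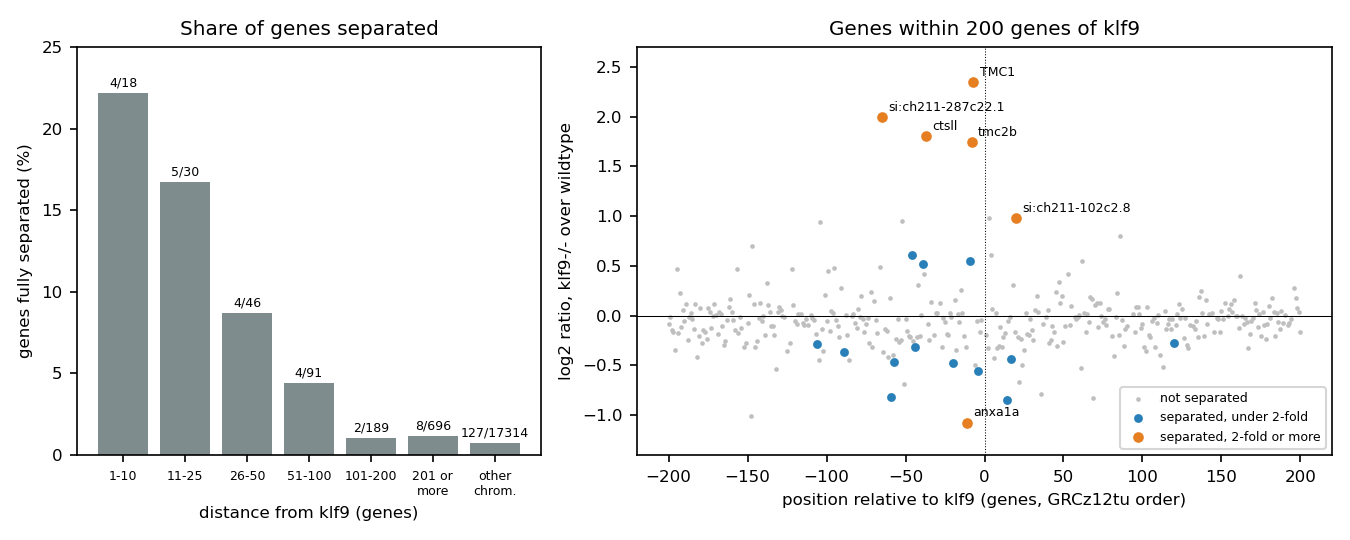
Left, share of genes of at least 0.5 CPM that were fully separated between the genotypes, by number of genes from klf9 (bars, with separated over all genes above each bar). Right, log2 ratio of klf9-/- over wildtype (means of 12 pools plus 0.05 CPM) of each gene within 200 genes of klf9 against its position in gene order, with separated genes in blue and members in orange. The share falls from 22.2% next to klf9 to 1.06% among the genes between 100 and 200 genes away, and separated genes lie both above and below 0.

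The members nearest to klf9 went in both directions. TMC1 (ENSDARG00000056386) and tmc2b (ENSDARG00000030311), which lie side by side with 6 and 7 genes between them and klf9, encode transmembrane channel-like proteins of the mechanotransduction complex in hair cells of the ear and lateral line. TMC1 was 8.19 to 11.4 CPM (median 9.29) in klf9-/- and 1.36 to 2.44 CPM (median 1.73) in wildtype, a ratio of 5.21 with a gap of 3.36, the widest among the genes not clone-named. tmc2b was 2.11 to 5.38 CPM (median 3.71) against 0.773 to 1.33 CPM (median 1.11), a ratio of 3.46. The other 5 TMC genes of at least 0.5 CPM overlapped, among them tmc2a, 500 genes from klf9 on the same chromosome (2.71 ± 0.275 and 2.79 ± 0.242 CPM, SD, n = 12). anxa1a, with 10 genes between it and klf9, was lower. si:ch211-102c2.8 (19 genes between), ctsll (36) and si:ch211-287c22.1 (64) were higher, the last being now gbgt1l8, a glycosyltransferase-like gene at 0.521 to 1.19 CPM against 0.0934 to 0.370 CPM. si:dkey-58f10.12 (295) and anxa1c (655) lay much farther away and were lower.

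Within 100 genes of klf9, 17 genes were separated at any ratio, 8 higher and 9 lower in klf9-/-. The 11 that missed the ratio limit included genes of basic metabolism and translation. Lower ones were eif1axa, a translation initiation factor (18.4 and 32.4 CPM), erap1b, of a family of peptidases that trim antigens in mammals (2.53 and 4.59 CPM), abhd17b (18.5 and 27.2 CPM) and pdha1a, a subunit of pyruvate dehydrogenase (198.5 and 273.7 CPM). Higher ones were mpdu1a (15.6 and 10.3 CPM), cyp1d1, a cytochrome P450 (26 and 17.7 CPM), and si:ch211-137i24.12 (5.74 and 4.00 CPM). Of all members, 43 were on other chromosomes or were not placed, and 25 of these were placed on other chromosomes. For genes on the klf9 chromosome or not placed, linkage, loss of Klf9 protein and other differences between the larvae cannot be told apart. On other chromosomes, loss of the Klf9 protein and other differences between the 2 sets of larvae cannot be told apart.

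Members also lay near each other. Of the 33 placed, 14 (42.4%) had another member among the 5 nearest genes on either side, compared with 213 of 18351 other genes (1.16%). Within 2 genes the shares were 24.2% and 0.507%, and within 10 genes 51.5% and 2.25%. Of 13 pairs within 10 genes, 11 went in the same direction, the exceptions being anxa1a with TMC1 and with tmc2b. trim35-1 and nxnl1 were adjacent, with si:ch211-114l13.1 and b3gntl1 close by, all higher, and BX469930.1 bears the name of the same clone as si:ch211-114l13.1. irgq1 and irge4 were adjacent, as were si:ch211-57b15.1 and si:ch211-57b15.2. si:dkey-271j15.3 and stk31 had 4 genes between them, ahsa1a and serpinb1l2 4, and tekt2 and si:dkey-3n22.9 5.

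In several genes the pools of the lower genotype were not alike, and the same pools stood out for different genes. si:ch211-114l13.1 (ENSDARG00000093323) was 3.01 to 6.08 CPM (median 4.45) in klf9-/-, at 0 in 7 wildtype pools and at 0.483 to 1.12 CPM in the other 5. The 7 pools were all 4 of ZT-3, replicates 1 and 4 of ZT0 and replicate 1 of ZT+2.5. trim35-1, 4 genes away, was 0 to 0.0555 CPM in the same 7 pools and 0.342 to 0.905 CPM in the same 5. FO681314.1 (ENSDARG00000104258), which was not placed, was at 0 in the same 7 and at 0.0936 to 0.290 CPM in the same 5, against 0.351 to 1.3 CPM in klf9-/-. For each of the 3 genes the values of these pools thus fell into the same groups. All values of trim35-1 and FO681314.1 were whole counts.

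The split was less sharp in other genes close by. nxnl1, adjacent to trim35-1, was 4.08 to 5.24 CPM in the 7 pools. In the 5 it was 6.54, 6.10, 6.12, 4.48 and 5.55 CPM, mostly above that range but overlapping it. b3gntl1 was 0.789 to 1.25 CPM in the 7 pools and 1.73, 1.23, 1.2, 1.43 and 1.62 CPM in the 5, which also overlap. BX469930.1, though of the same clone name, was 0.253 to 0.472 CPM and 0.146 to 0.420 CPM. In klf9-/-, the 5 pools in which si:ch211-57b15.1 was at 0 held 0 to 0.0566 CPM of its neighbour si:ch211-57b15.2, and the other 7 held 0.15 to 0.488 CPM. Most values of both genes were not whole, and the part of shared reads in this was not tested. ahsa1a did not follow these pools (0.247 to 1.42 and 0.237 to 2.98 CPM). The labels name no clutch or parents for a pool.

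**Figure D3:**
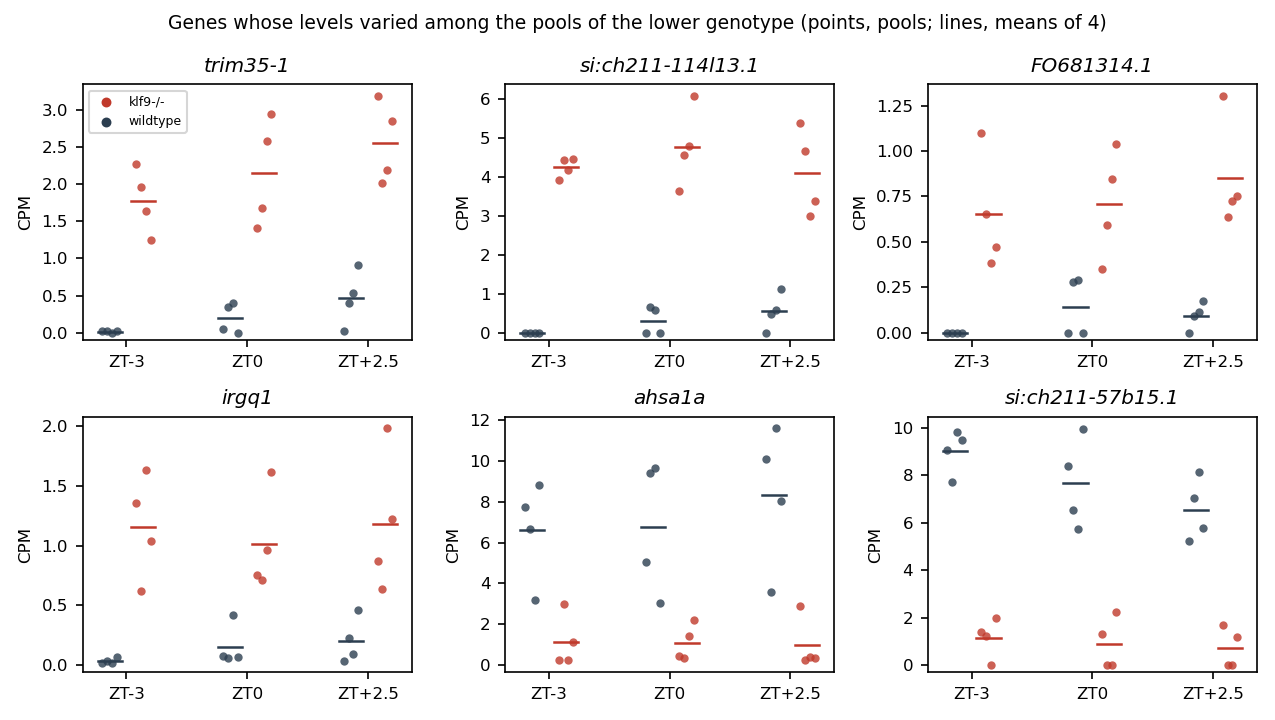
Level (CPM) of 6 genes in each pool by time point, red for klf9-/- and dark blue for wildtype, with lines for the means of 4 pools. In wildtype, trim35-1, si:ch211-114l13.1 and FO681314.1 are at or near 0 in the 4 pools of ZT-3 and in 3 later pools; in klf9-/-, si:ch211-57b15.1 is at 0 in 5 pools.

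The choice of genes fixed the direction of the genotype difference at each time point, so only its size is described. A ratio at a time point was taken against the floor of 3 counts per library, as a lower bound, where all 4 pools of the lower genotype had fewer than 3 counts, which was the case at some time point in 8 genes. The ratio or bound was at least 2 at all 3 time points in 42 of the 51 genes, 31 higher and 11 lower, and the lowest at any time point was 1.62, of si:ch211-102c2.8 at ZT0. Among the 43 genes without a bound, the largest ratio was at ZT-3 in 22, at ZT0 in 11 and at ZT+2.5 in 10.

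The median of the largest over the smallest ratio in these 43 genes was 1.36. The widest spread, 6.01, belonged to irgq1, with ratios of 34.8, 6.54 and 5.79 in the order of time. Its wildtype mean at ZT-3 was 0.0334 CPM, with at most 4 counts in a pool. At ZT0 wildtype replicate 3 was at 0.417 CPM and the others at 0.0603 to 0.0740 CPM. irgq1 was 0.0155 to 0.0740 CPM in the 7 wildtype pools without si:ch211-114l13.1 and 0.0603 to 0.462 CPM in the other 5. Time and pool cannot be told apart for irgq1, nor for trim35-1. trim35-1 had at most 1 count in each wildtype pool of ZT-3. It was at least 35.1-fold higher in klf9-/- there, and 10.8- and 5.51-fold higher at ZT0 and ZT+2.5. si:dkey-271j15.3 was at least 24.3-fold higher at ZT-3, and 21.9- and 9.54-fold higher later.

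**Figure D4:**
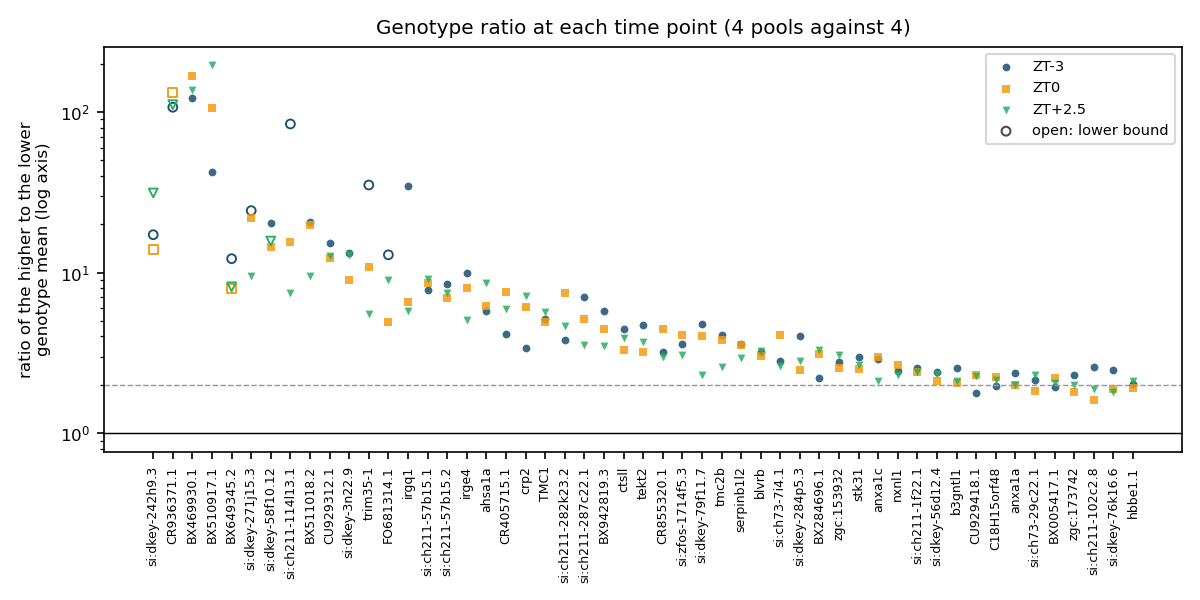
Ratio of the higher to the lower genotype mean (4 pools each, log axis) at ZT-3, ZT0 and ZT+2.5 for the 51 genes, ordered by their overall ratio. Open symbols are lower bounds against a floor of 3 counts per library, and the dashed line marks a ratio of 2. That no point lies under 1 follows from the choice of genes, and irgq1 has the widest spread among genes without a bound.

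Time of day was not part of the choice and was tested, with edgeR's quasi-likelihood test over 23158 genes, PC1 as covariate and a Benjamini-Hochberg adjusted p of at most 0.1. Within each genotype the test was for any difference among the 3 time points, not for a change between a given pair. All 51 members passed the filter on low counts. In wildtype 8 of them (15.7%) were called, compared with 7081 of all genes (30.6%). In klf9-/- 9 (17.6%) were called, compared with 7832 (33.8%). Time and pool cannot be told apart in wildtype for trim35-1, si:ch211-114l13.1, FO681314.1, b3gntl1, si:ch211-287c22.1 and si:dkey-79f11.7, as described below. The choice of genes favours small variation within a genotype, so nothing is read from the lower shares. TMC1 was the one gene called in both genotypes. The counts depended on single libraries: in wildtype 5 were called without replicate 4 of ZT-3 or of ZT+2.5, and in klf9-/- 5 without replicate 1 or 3 of ZT-3, 3 without replicate 4 of ZT-3 and 4 without replicate 2 of ZT0. Without PC1 they were 6 in wildtype and 3 in klf9-/-.

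TMC1 had its highest mean at ZT0 in both genotypes. In klf9-/- it was at 8.43 ± 0.241, 10.3 ± 1.01 and 9.30 ± 0.230 CPM at the time points in turn (SD, n = 4). In wildtype it was at 1.65 ± 0.390, 2.10 ± 0.298 and 1.63 ± 0.122 CPM. Its edgeR adjusted p over the time points was 0.0739 in klf9-/- and 0.0516 in wildtype. From ZT0 to ZT+2.5 the log2 change was -0.110 ± 0.107 in klf9-/- and -0.319 ± 0.135 in wildtype (SE). si:ch211-102c2.8 had the smallest adjusted p in klf9-/- (0.000468). It fell there from 2.94 ± 0.376 CPM at ZT-3 to 1.85 ± 0.130 CPM at ZT+2.5, a log2 change of -0.65 ± 0.12 (SE). tmc2b fell in klf9-/- after ZT0, from 4.32 ± 0.770 to 2.74 ± 0.713 CPM (-0.61 ± 0.14 in log2, SE). Its edgeR adjusted p over the time points was 0.00616 there. In wildtype tmc2b stayed between 0.959 and 1.14 CPM on average and did not pass the test (edgeR adjusted p = 0.177).

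crp2 rose in klf9-/- from 22.3 ± 1.90 CPM at ZT-3 to 36.8 ± 4.36 CPM at ZT+2.5, a log2 change of 0.80 ± 0.28 (SE). Its edgeR adjusted p over the time points was 0.0824. anxa1a rose in klf9-/- from 88.8 ± 12.5 to 107.9 ± 14.7 CPM (0.32 ± 0.10 in log2, SE), with an edgeR adjusted p over the time points of 0.0435. BX469930.1, CR936371.1, nxnl1 and CU929418.1 had their highest means at ZT0 in klf9-/-. Their edgeR adjusted p over the time points was 0.0495, 0.0545, 0.0377 and 0.0931. From ZT0 to ZT+2.5 their log2 changes were -0.092 ± 0.115, -0.234 ± 0.134, -0.281 ± 0.124 and -0.415 ± 0.212 (SE), and a maximum at ZT0 was not tested. In wildtype si:dkey-242h9.3 rose by 1.1 ± 0.24 in log2 (SE) from ZT0 to ZT+2.5. Its edgeR adjusted p over the time points was 0.00563. Wildtype b3gntl1, si:ch211-287c22.1 and si:dkey-79f11.7 were higher at ZT+2.5 than at ZT-3 by 0.49, 0.83 and 0.86 in log2. In the 7 wildtype pools without si:ch211-114l13.1, the last 2 were 0.0934 to 0.164 and 0.241 to 0.462 CPM. The other 5 pools held 0.182 to 0.370 and 0.487 to 0.751 CPM, without overlap. b3gntl1 was 0.789 to 1.25 CPM in the 7 and 1.2 to 1.73 CPM in the 5. As all 4 pools of ZT-3 are among the 7, time and pool cannot be told apart for these genes. trim35-1, si:ch211-114l13.1 and FO681314.1 were also called in wildtype (edgeR adjusted p = 0.00612, 0.0318 and 0.0734). For these 3 genes, levels at 0 or near it in the 4 pools of ZT-3 and in 3 later ones make up the difference, and time and pool cannot be told apart.

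Whether the genotype difference itself varied with time was tested by the interaction of genotype and time. edgeR called 4 of 23158 genes (0.0173%) and none of the 51, the smallest adjusted p being 0.859. At an unadjusted p under 0.05 there were 10 of 51 (19.6%), compared with 1110 of all genes (4.79%). The 10 included trim35-1, si:ch211-114l13.1, FO681314.1, tmc2b and si:ch211-102c2.8. Because the genotype difference selected the genes, nothing is read from the higher share. For trim35-1, si:ch211-114l13.1 and FO681314.1, time and pool cannot be told apart in wildtype. The same holds for si:ch211-287c22.1 and si:dkey-79f11.7, also among the 10. DESeq2's likelihood ratio test called none of the 51 either, and 36 of 18219 genes in all (0.198%).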

How the data were processed

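The authors trimmed single-end reads of 75 bases with Trim Galore 0.6.5, and aligned and counted them with STAR 2.7.5c and RSEM 1.3.3 on Ensembl release 101. They deposited expected counts per gene without normalization, which carry a gene symbol and were used here for all 24 samples. The RSEM options they state include none for strand, which leaves counting at its unstranded default, so reads of overlapping genes on opposite strands cannot be told apart. The deposited regularized log2 values, made by the authors with DESeq2 1.30.1, served for the principal components only. The authors' DESeq2 tables of fold changes and p-values were not used.

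The 51 members, the gene classes and the marker lists were chosen with earlier results of these data known. Symbols were matched to RefSeq genes of GRCz12tu for names and gene order only: 20923 genes of the table matched. For the tests of time, expected counts were rounded, filtered with filterByExpr by group, scaled by TMM and fitted with edgeR 4.0.16 (glmQLFit and glmQLFTest, R 4.3.3), with 6 group means and the PC1 score. The replicate numbers were not treated as pairs: deviations of same-numbered samples between time points correlated at -0.441 to 0.396, and 7 of 24 pairs were above 0.1. The scripts were tested on simulated data. P-values measure the spread between pools, which shared an extraction run within a group.

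Genes named by rule were, in each direction, the 12 largest ratios, the 10 largest among genes not clone-named, genes with fewer than 3 counts in all samples of the other genotype, the 3 on either side of each limit, the 5 nearest to klf9 on its chromosome, and members in neighbouring groups, classes, marker lists or among the 3 smallest p for time. The remaining members and the other genes near klf9 were named after their values were seen. Alternatives were TMM and DESeq2 size factors, other limits of level and ratio, DESeq2 1.42.0, no filter, no PC1, a replicate block and leaving out each sample. Promoter motifs and protein sequences were not analysed here.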

Additional observations from a re-analysis of the deposited data

Results flagged for a closer look

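In 48 groups of 4 pools, Dixon's criterion at the 95% level marked 4 values as far from the rest of their group. The groups were 6 for each of 8 quantities: klf9, members named above and the total counts. Groups of 4 equal values, such as si:dkey-242h9.3 in klf9-/-, could not be tested. Chance alone marks about 1 group in 20. trim35-1 was 0 CPM in wildtype replicate 3 of ZT-3 and 0.0164 to 0.0186 CPM in the other 3 pools, a difference of a single read. si:ch211-102c2.8 was 1.59 CPM in wildtype replicate 2 of ZT0, and 1.08 to 1.15 CPM in the other 3. nxnl1 was 15.0 CPM in klf9-/- replicate 4 of ZT-3 and 9.64 to 10.5 CPM in the others. At ZT0 it was 16.4 CPM in klf9-/- replicate 4 and 13.9 to 14.3 CPM in the others. Neither high pool of nxnl1 narrows its separation from wildtype, whose highest value was 6.54 CPM.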

How the results depend on the processing

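With TMM or DESeq2 size factors the sets held 38 higher and 12 lower genes. At any ratio TMM gave 62 lower genes in place of 120. A minimum ratio of 1.5 gave 36 lower genes, and one of 3 gave 9. Leaving out 1 sample at a time gave 33 to 37 higher and 15 to 21 lower genes. With 2 genes on either side instead of 5, 8 members had a member as neighbour. Without PC1, 3 members were called for time in klf9-/-, and 19.7% of all genes. Leaving out 1 sample gave 5 to 12 calls in wildtype, 3 to 11 in klf9-/- and 0 for the interaction. The shares of all genes were then 26.3% to 31.8%, 30.2% to 34.4% and 0.0086% to 0.0473%. DESeq2 called 12, 10 and 0 (all genes 31.9%, 34.3% and 0.198%). The fit with a replicate block and PC1 called 10, 9 and 0 (all genes 29.6%, 33.3% and 0.013%). The log2 ratio of 14 members, mostly genes near 0 in 1 genotype, moved by more than the spread within genotypes in the edgeR fit with PC1. That of 13 did so at ZT-3 alone. This spread was the SD of log2 CPM over the 12 pools of a genotype, pooled over both genotypes and with differences between time points included. The log2 ratios compared here add 0.05 CPM to both means, which the edgeR fit does not. For si:dkey-242h9.3 they were -4.75 and -9.03. Other causes of these shifts were not tested. The planned promoter motifs and protein comparisons were not run. Depth limits the 25 genes with a higher mean under 2 CPM most. On average, 3 counts correspond to 0.0538 CPM in wildtype libraries and 0.0628 CPM in klf9-/- libraries.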
